A study of Homo sapiens with 8 samples.

Results

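The core pluripotency factors are the genes that hold embryonic and embryonal carcinoma cells in an undifferentiated state, together with the transcripts that define that state. They comprised 10 genes here: POU5F1, NANOG, SOX2, LIN28A, LIN28B, DPPA4, L1TD1, SALL4, PODXL and ZFP42. They were taken by name from the gene symbols of the transcript clusters, the probe groups of the Affymetrix Human Gene 1.0 ST array. These 10 genes lay on 14 of the 21214 clusters with at least 1 gene symbol. SOX2, LIN28A, LIN28B, DPPA4, L1TD1, SALL4, PODXL and ZFP42 each had a cluster with 1 symbol. POU5F1 and NANOG had none: all 3 POU5F1 clusters also carried POU5F1B, POU5F1P3 and POU5F1P4, and both NANOG clusters also carried NANOGP1. Their values are therefore those of the shared clusters and cannot be assigned to POU5F1 or NANOG alone.

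RNA came from NCCIT, an established human embryonal carcinoma line from a nonseminomatous germ cell tumor. The cells were transfected transiently with small interfering RNA against TET1 (siTET1), TET2 (siTET2) or TET3 (siTET3), or with a non-targeting control (siNTC), and each group had 2 arrays, 8 in all. Each TET was targeted with a pool of several siRNAs, per the study's methods, so the effects of single siRNAs cannot be told apart, and a whole culture rather than a clone was profiled. The TETs are dioxygenases that oxidise methylated cytosine in DNA, and the comparisons with siNTC asked how transcripts depended on each of them. The targeted transcript fell in each case, TET1 to 62.3% of siNTC in siTET1 (log2 change -0.68 ± 0.049), TET2 to 54.4% in siTET2 (-0.88 ± 0.096) and TET3 to 47.4% in siTET3 (-1.08 ± 0.15), with limma adjusted p of 7.89e-07, 1.77e-05 and 1.39e-04 in that order. TET1 also fell in siTET2 and rose in siTET3, and TET2 fell in siTET3.

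POU5F1 (OCT4), SOX2 and NANOG are transcription factors that bind many of the same regulatory regions, their own genes among them, and keep each other expressed. SALL4, ZFP42 (REX1) and DPPA4 are nuclear proteins that accompany this circuit. LIN28A and LIN28B bind RNA and block the maturation of let-7 microRNAs, and L1TD1 is an RNA-binding protein derived from a retrotransposon. PODXL, podocalyxin, is a heavily glycosylated surface protein that carries epitopes used to identify human pluripotent cells. Silencing of these genes accompanies the exit from pluripotency.

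Promoter windows of 300 bases, 250 before to 50 after a transcription start (RefSeq, GRCh38.p14), were found for 6 of the 10 genes: NANOG, SOX2, LIN28B, DPPA4, L1TD1 and ZFP42. POU5F1, LIN28A, SALL4 and PODXL had no entry. Both strands were searched for the octamer ATGCAAA bound by POU factors, the SOX and octamer composite TTGTNATGC and the GC box GGGCGG. The composite ends in ATGC, so it can share these letters with an octamer. The windows of NANOG and SOX2, which fell with POU5F1, are shown first, with the octamer and the composite in capitals.
NANOG (chr12:7789152-7789451, plus strand): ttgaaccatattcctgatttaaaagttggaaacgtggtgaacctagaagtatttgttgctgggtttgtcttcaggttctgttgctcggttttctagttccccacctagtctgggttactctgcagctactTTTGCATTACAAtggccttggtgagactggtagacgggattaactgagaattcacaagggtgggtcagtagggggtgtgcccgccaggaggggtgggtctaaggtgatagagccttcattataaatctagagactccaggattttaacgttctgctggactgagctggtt
SOX2 (chr3:181711675-181711974, plus strand): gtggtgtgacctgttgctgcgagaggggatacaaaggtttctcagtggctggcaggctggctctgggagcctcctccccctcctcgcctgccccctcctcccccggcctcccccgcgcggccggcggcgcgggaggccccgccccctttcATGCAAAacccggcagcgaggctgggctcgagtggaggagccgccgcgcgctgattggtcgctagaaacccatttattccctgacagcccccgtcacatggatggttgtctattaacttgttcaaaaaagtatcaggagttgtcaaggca
The windows of L1TD1 and DPPA4, the pair of factors that rose in every depletion, follow with the GC box in capitals.
L1TD1 (chr1:62194599-62194898, plus strand): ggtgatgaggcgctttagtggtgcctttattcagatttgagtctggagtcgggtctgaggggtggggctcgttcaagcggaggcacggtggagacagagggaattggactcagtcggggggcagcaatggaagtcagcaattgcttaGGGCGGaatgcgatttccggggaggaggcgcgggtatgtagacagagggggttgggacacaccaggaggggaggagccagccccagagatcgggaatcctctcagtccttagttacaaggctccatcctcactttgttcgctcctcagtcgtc
DPPA4 (chr3:109337497-109337796, minus strand): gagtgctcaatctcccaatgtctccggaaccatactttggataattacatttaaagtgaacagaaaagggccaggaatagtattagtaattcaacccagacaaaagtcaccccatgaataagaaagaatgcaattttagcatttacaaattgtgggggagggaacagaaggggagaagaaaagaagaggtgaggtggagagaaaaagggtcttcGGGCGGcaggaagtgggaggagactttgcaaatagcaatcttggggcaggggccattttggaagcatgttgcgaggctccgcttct

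The capitals in the NANOG window are an octamer on the minus strand at bases -120 to -114 from the start and a composite on the minus strand at bases -117 to -109, which overlap. SOX2 held an octamer on the plus strand at bases -100 to -94 and no composite. The octamer occurred in 4.46% of all 35116 promoter windows and the composite in 0.601%. No octamer and no composite was found in the windows of L1TD1, DPPA4 and ZFP42 or in both windows of LIN28B. A GC box occurred in 45% of all windows. It was present in SOX2, L1TD1, DPPA4, ZFP42, which held 3, and 1 of the 2 LIN28B windows, and was not found in NANOG. NANOG and DPPA4 had 5 CpG dinucleotides each, L1TD1 14, SOX2 20, ZFP42 24 and the LIN28B windows 37 and 8, beside a median of 14 over all windows (quartiles 4 and 28). Among the factors that fell, the count was 5 in NANOG, 20 in SOX2 and 24 in ZFP42, all within the quartiles.

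All 10 factors were far above background, taken as a log2 intensity of 5.21, which 95% of 341 olfactory receptor genes did not exceed in their mean, on all 8 arrays. Log2 intensities of different clusters cannot be ranked against each other, so levels are compared within a gene only. In the plot of the factors by array, 8 of the 10 had all 6 depletion arrays on one side of both siNTC arrays: DPPA4 and L1TD1 above, and POU5F1, NANOG, SOX2, SALL4, PODXL and ZFP42 below. Over all clusters tested, 16.3% had every depletion array above both siNTC arrays and 24.3% had every one below.

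**Figure D1:**
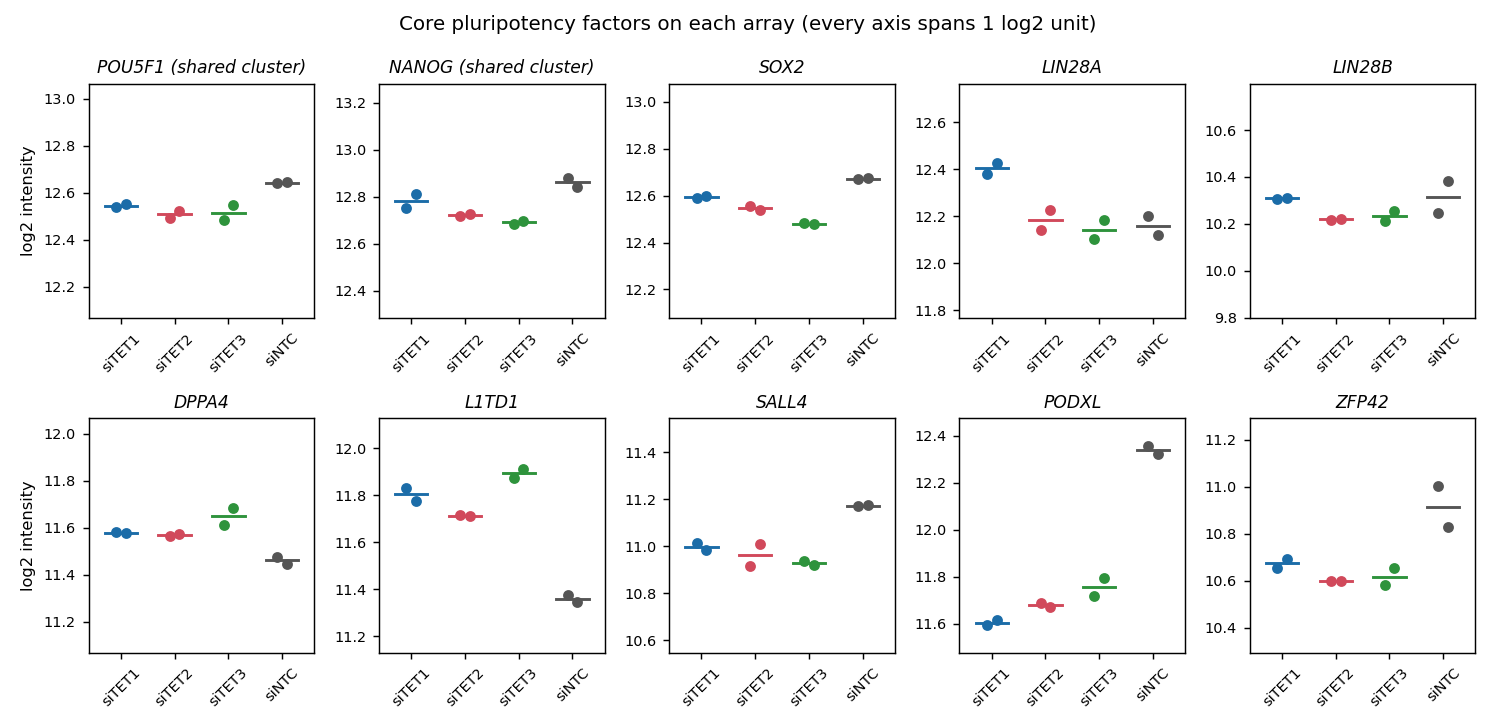
Log2 intensity (vertical axes, each spanning 1 log2 unit) of the 10 factors on each array (points) of siTET1, siTET2, siTET3 and siNTC; bars are group means of 2 arrays. PODXL shows the widest gap, with depletion arrays at 11.59 to 11.79 and siNTC arrays at 12.32 and 12.36, and LIN28A is high in siTET1 only.

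Differences were tested with limma over all 21214 clusters, and changes with an adjusted p under 0.05 count as called. In siTET1, 3 factors were called higher (LIN28A, DPPA4 and L1TD1) and 4 lower (POU5F1, SALL4, PODXL and ZFP42), where 15.6% of all clusters were called higher and 18.8% lower. In siTET2, 2 were called higher (DPPA4 and L1TD1) and 6 lower (POU5F1, NANOG, SOX2, SALL4, PODXL and ZFP42), against backgrounds of 14.7% and 21.1%. The same 2 and 6 factors were called in siTET3, with backgrounds of 14.0% and 21.8%, and in the mean of the 3 depletions, with backgrounds of 16.6% and 23.9%. DPPA4 and L1TD1 rose, and POU5F1, SALL4, PODXL and ZFP42 fell, in each of the 3 depletions, as did 9.03% of all clusters upward and 13.6% downward. The shares of all clusters are not matched to the factors in intensity, and they include clusters below background. In siTET1 against siNTC the standard errors of the factors were 0.029 to 0.053. Those of NANOGNB and CD34, for example, both below background, were 0.113 and 0.118. The median log2 change of the 10 factors was -0.08 in siTET1, -0.13 in siTET2 and -0.15 in siTET3, beside -0.03, -0.04 and -0.01 over all clusters. All 3 depletions were compared with the same 2 siNTC arrays, so the 3 comparisons are not independent. The siNTC arrays correlated with depletion arrays at r = 0.990 to 0.992 over clusters, below the 0.996 to 0.998 between arrays of different depletions and the 0.998 to 0.999 between replicates.

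**Figure D2:**
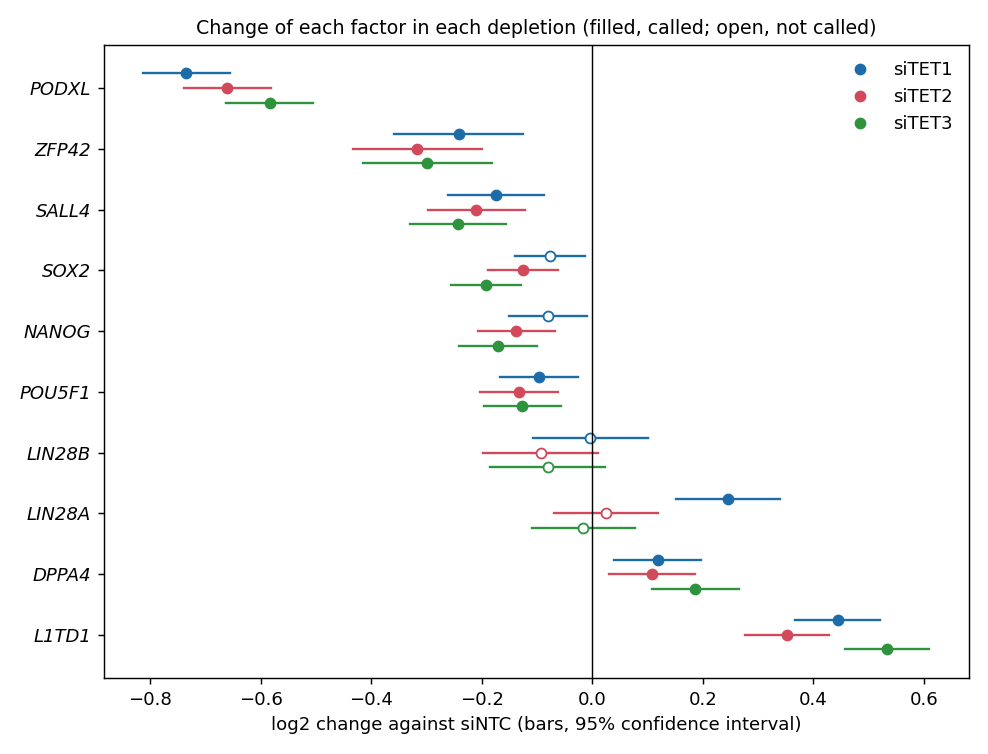
Log2 change against siNTC (horizontal axis) of each factor in siTET1, siTET2 and siTET3; points are fitted changes, bars their 95% confidence intervals, and open points were not called. PODXL lies at -0.73 to -0.58, L1TD1 at 0.35 to 0.53, and the intervals of POU5F1, NANOG and SOX2 lie between -0.26 and -0.01.

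The 3 transcription factors at the centre of the circuit fell by less than 0.20 log2 units in siTET2 and siTET3, and of them POU5F1 was also called in siTET1. The POU5F1 cluster (gene at chr6:31164337-31170682) read 12.54 and 12.55 in siTET1, 12.49 and 12.52 in siTET2, and 12.49 and 12.55 in siTET3, against 12.64 and 12.64 in siNTC. Every depletion array lay below both siNTC arrays, and the siTET3 arrays overlapped those of siTET1 and siTET2. The decrease was -0.10 ± 0.032 in siTET1 (adjusted p = 0.0351), -0.13 ± 0.032 in siTET2 (0.00619) and -0.13 ± 0.032 in siTET3 (0.00850), where ± gives the standard error of the fit with n = 2 arrays a group. POU5F1 thus kept 91.2% to 93.5% of its siNTC intensity, and the 3 depletions were not called different from each other. The call in siTET1 was lost without any one of the siTET1, siTET2 or siNTC arrays (adjusted p = 0.0619 to 0.159), that in siTET2 without siTET2 replicate 1 (-0.12, 0.0732) and that in siTET3 without siTET3 replicate 1 (-0.10, 0.0627). With no intensity trend in the fit none of the 3 was called (adjusted p = 0.201, 0.0871 and 0.0998), nor was the mean of the depletions (0.0588), and over all clusters of the array the call in siTET1 was lost (0.0760). In these RNAs of whole cultures, fewer cells that express a gene and less RNA per cell cannot be told apart.

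A pair of other POU5F1 clusters held identical values to each other and so count as 1 measurement. They read 12.03 to 12.07 on the depletion arrays and 12.15 and 12.16 in siNTC, with changes of -0.09, -0.10 and -0.10 in siTET1, siTET2 and siTET3, all called. POU5F1B, a close copy of POU5F1 on another chromosome and one of the symbols these clusters share, also had a cluster of its own. That cluster read 10.82 to 11.07 on the depletion arrays and 10.92 and 10.96 in siNTC, and was not called (mean of the depletions 0.02 ± 0.054, adjusted p = 0.798). Its values overlapped between depletion and siNTC arrays, unlike those of the shared clusters.

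NANOG (gene at chr12:7789402-7799146), a homeodomain factor, read 12.75 and 12.81 in siTET1, 12.72 and 12.73 in siTET2, and 12.68 and 12.70 in siTET3, against 12.88 and 12.84 in siNTC. The order of the group means was siTET3, siTET2, siTET1 and siNTC from low to high, and no pair of depletions was called different. It fell by 0.14 ± 0.032 on the log2 scale in siTET2 (adjusted p = 0.00484) and by 0.17 ± 0.032 in siTET3 (0.00119), and its change in siTET1 was -0.08 ± 0.032 with an adjusted p of 0.0741. The second NANOG cluster fell in siTET2 (-0.14) and siTET3 (-0.15) and was not called in siTET1 (-0.06, adjusted p = 0.249). With no intensity trend the decrease in siTET2 was not called (adjusted p = 0.0802), and with quantile normalization that in siTET1 was (-0.09, 0.0383). NANOGP1, the pseudogene whose symbol these clusters share, had a single-symbol cluster with a change of -0.17 ± 0.070 in the mean of the depletions, which was not called (adjusted p = 0.0711).

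SOX2 (chr3:181711925-181714436), the partner of POU5F1 on composite sites such as the one shown in the NANOG window, read 12.59 and 12.60 in siTET1, 12.55 and 12.54 in siTET2, and 12.48 and 12.48 in siTET3, against 12.67 and 12.68 in siNTC. The replicates were close, and none of the 4 groups overlapped another. SOX2 fell by 0.13 ± 0.029 in siTET2 (adjusted p = 0.00476) and by 0.19 ± 0.029 in siTET3 (2.37e-04), while its change in siTET1 was -0.08 ± 0.029 (adjusted p = 0.0609). It was lower in siTET3 than in siTET1 by -0.12 ± 0.029 (adjusted p = 0.0225). The siTET3 and siTET2 groups, neighbours in this order, were not called different (-0.07, 95% confidence interval -0.13 to -0.0039, adjusted p = 0.177). The difference between siTET3 and siTET1 was not called after quantile normalization (-0.10, adjusted p = 0.0537), without either siTET1 or siTET2 array or without siTET3 replicate 1 (0.0527 to 0.143), and the decrease in siTET2 was lost without siTET2 replicate 2 (-0.12, 0.0530). With quantile normalization SOX2 was called in siTET1 (-0.09, 0.0361), and with no intensity trend neither the decrease in siTET2 (0.0882) nor the difference between siTET3 and siTET1 (0.195) was called.

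Of the other nuclear factors, SALL4 and ZFP42 fell and DPPA4 rose. SALL4 (chr20:51782331-51802521), a zinc finger factor that acts with POU5F1, read 11.01 and 10.99 in siTET1, 10.92 and 11.01 in siTET2, and 10.94 and 10.92 in siTET3, against 11.17 and 11.17 in siNTC. Every depletion array lay below both siNTC arrays, and the siTET2 arrays differed from each other by more than the other pairs did (SD 0.068). The decrease was -0.17 ± 0.040 in siTET1 (adjusted p = 0.00472), -0.21 ± 0.040 in siTET2 (0.00127) and -0.24 ± 0.040 in siTET3 (4.51e-04), with no difference called between depletions.

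ZFP42 (chr4:187995771-188005246), a zinc finger protein long used as a marker of undifferentiated cells, read 10.66 and 10.69 in siTET1, 10.60 and 10.60 in siTET2, and 10.58 and 10.65 in siTET3, against 11.002 and 10.83 in siNTC. The siNTC arrays differed from each other by more than any depletion pair did (SD 0.12), and the lower of them still lay above all 6 depletion arrays. The change was -0.24 ± 0.053 in siTET1 (adjusted p = 0.00372), -0.32 ± 0.053 in siTET2 (5.21e-04) and -0.30 ± 0.053 in siTET3 (8.35e-04).

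DPPA4 (chr3:109326144-109339636), a chromatin-associated protein of pluripotent and germ cells, read 11.58 and 11.58 in siTET1, 11.57 and 11.57 in siTET2, and 11.61 and 11.68 in siTET3, against 11.48 and 11.45 in siNTC. All depletion arrays lay above siNTC. The increase was 0.12 ± 0.036 in siTET1 (adjusted p = 0.0234), 0.11 ± 0.036 in siTET2 (0.0339) and 0.19 ± 0.036 in siTET3 (0.00141), and siTET3 was not called different from siTET2 (0.08, interval 0 to 0.16, adjusted p = 0.207). The call in siTET1 was lost without either siTET1 array or siNTC replicate 2 (adjusted p = 0.0890 to 0.112), and that in siTET2 without any one of the siTET1, siTET2 or siNTC arrays (0.0513 to 0.152). Neither was called with no intensity trend (0.133 and 0.161) or over all clusters of the array (0.0539 and 0.0674).

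The RNA-binding proteins behaved differently from each other. L1TD1 (chr1:62194849-62212328) read 11.83 and 11.78 in siTET1, 11.71 and 11.71 in siTET2, and 11.88 and 11.91 in siTET3, against 11.38 and 11.34 in siNTC. It was the factor with the largest rise among the 10, and its groups did not overlap. The increase was 1.36-fold in siTET1 (log2 0.44 ± 0.035, adjusted p = 1.67e-06), 1.28-fold in siTET2 (0.35 ± 0.035, 8.18e-06) and 1.45-fold in siTET3 (0.53 ± 0.035, 3.73e-07). L1TD1 was higher in siTET3 than in siTET2 by 0.18 ± 0.035 (adjusted p = 0.00601), while siTET1 lay between them and was not called different from siTET2 or siTET3. That difference was not called without either siTET2 array (adjusted p = 0.0617 and 0.0665) or with no intensity trend (0.0909).

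LIN28A (chr1:26410817-26429728) stood out by depletion. It read 12.38 and 12.43 in siTET1, 12.14 and 12.23 in siTET2, and 12.10 and 12.18 in siTET3, against 12.20 and 12.12 in siNTC. Both siTET1 arrays lay above all others, and the siTET2, siTET3 and siNTC arrays overlapped. LIN28A rose 1.19-fold in siTET1 (0.25 ± 0.043, adjusted p = 7.75e-04), and its changes in siTET2 (0.02 ± 0.043, adjusted p = 0.716) and siTET3 (-0.02 ± 0.043, 0.805) were not called. It was lower in siTET2 than in siTET1 by -0.22 ± 0.043 (adjusted p = 0.0115) and lower in siTET3 than in siTET1 by -0.26 ± 0.043 (0.00224). The difference of siTET2 from siTET1 was not called without either siTET1 array or siTET2 replicate 1 (adjusted p = 0.0600 to 0.159), over all clusters of the array (0.0878) or with no intensity trend (0.136).

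A second, dimmer LIN28A cluster read 10.20 and 10.04 in siTET1, 9.96 and 9.85 in siTET2, and 10.04 and 9.67 in siTET3, against 9.78 and 9.72 in siNTC. It too was called higher in siTET1 (0.37 ± 0.097, adjusted p = 0.00983). Unlike the brighter cluster (0.08 ± 0.035, adjusted p = 0.0762), it was also called higher in the mean of the depletions (0.22 ± 0.079, 0.0471). Both of its siTET2 arrays lay above both siNTC arrays. In the dimmer cluster, the siTET3 arrays differed by more than any other pair (SD 0.26). Its differences of siTET2 and siTET3 from siTET1 were not called (-0.21, adjusted p = 0.261, and -0.26, adjusted p = 0.104). LIN28B (chr6:104937026-105083332), the paralog, read 10.31 and 10.31 in siTET1, 10.22 and 10.22 in siTET2, and 10.21 and 10.25 in siTET3, against 10.25 and 10.38 in siNTC. Both siTET2 arrays lay below siNTC, the siTET1 and siTET3 arrays overlapped it, and LIN28B was not called in any comparison (-0.0039, -0.09 and -0.08 in siTET1, siTET2 and siTET3, adjusted p = 0.964, 0.156 and 0.220). Without siNTC replicate 1 LIN28B was called lower in siTET2 (-0.16, adjusted p = 0.0212) and in siTET3 (-0.15, 0.0323), so that array decided its call.

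PODXL (chr7:131500271-131556628) changed most of the 10 factors. It read 11.59 and 11.62 in siTET1, 11.69 and 11.67 in siTET2, and 11.72 and 11.79 in siTET3, against 12.36 and 12.32 in siNTC. The gap between the highest depletion array and the lowest siNTC array was wider than the spread within any group, and the 3 depletion groups did not overlap. PODXL fell to 60.1% of siNTC in siTET1 (-0.73 ± 0.036, adjusted p = 5.43e-08), to 63.3% in siTET2 (-0.66 ± 0.036, 7.80e-08) and to 66.7% in siTET3 (-0.58 ± 0.036, 2.42e-07). It was higher in siTET3 than in siTET1 by 0.15 ± 0.036 (adjusted p = 0.0177), and siTET2, between them, was not called different from either. The difference between siTET3 and siTET1 was not called without either siTET1 array or siTET3 replicate 2 (adjusted p = 0.0708 to 0.116), over all clusters of the array (0.0749) or with no intensity trend (0.137). PODXL was the only one of the 10 factors with a called change of at least 1.5-fold against siNTC, in siTET1 and siTET2. Its decrease in siTET3 was 1.499-fold.

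Fewer factors were called between depletions. In siTET2 against siTET1, none of the 10 was called higher and 1 lower (LIN28A), where 2.64% and 3.73% of all clusters were called. In siTET3 against siTET1, 1 was called higher (PODXL) and 2 lower (SOX2 and LIN28A), against 3.87% and 9.01%. In siTET3 against siTET2, 1 was called higher (L1TD1) and none lower, against 4.71% and 7.09%. At an unadjusted p under 0.05, limma gave 0 higher and 2 lower in siTET2 against siTET1. It gave 2 higher and 3 lower in siTET3 against siTET1, and 1 higher and 1 lower in siTET3 against siTET2. The share of all clusters at that unadjusted threshold was not counted, so these counts have no background beside them.

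Genes of the LIN28 pathway were examined next. LIN28A recruits terminal uridylyl transferases to the let-7 precursor, whose mature product carries a seed found in all let-7 family members. The array reports the transcript region of a microRNA gene, not the mature microRNA. The mature let-7f and miR-302 sequences are shown with the seed, bases 2 to 8, in capitals, because the clusters of their genes changed and because the miR-302 group is abundant in pluripotent cells.
hsa-let-7f-5p: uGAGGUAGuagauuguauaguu
hsa-miR-302a-3p: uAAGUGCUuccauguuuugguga
hsa-miR-302b-3p: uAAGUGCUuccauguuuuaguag
The miR-302 pair shares a seed that differs from that of let-7f. Of 43 measured genes of the LIN28 and let-7 pathway (51 listed), 9 were called higher and 13 lower in siTET1, 10 and 11 in siTET2, 6 and 19 in siTET3, and 9 and 16 in the mean of the depletions. Of all clusters, 15.6% and 18.8% were called higher and lower in siTET1, 14.7% and 21.1% in siTET2, 14.0% and 21.8% in siTET3, and 16.6% and 23.9% in the mean. The medians were 0.02 in siTET1, -0.04 in siTET2 and -0.13 in siTET3, beside the -0.03, -0.04 and -0.01 of all clusters.

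The largest change in this list was in CCND1, cyclin D1, which rose by 1.13 ± 0.059 in the mean of the depletions, with 9.01 to 9.55 on the depletion arrays and 8.11 and 8.21 in siNTC. CCND2, cyclin D2, fell (-0.71 ± 0.045), as did TUT1, a terminal uridylyl transferase (-0.61 ± 0.068). Of the transferases that act on let-7 precursors, named after their values were seen, TUT4 rose (0.19 ± 0.037, adjusted p = 0.00126) and TUT7 was not called (0.04 ± 0.060, 0.683). The cyclin pair therefore moved in opposite directions. The cluster of MIRLET7F1 rose by 0.78 ± 0.073 (adjusted p = 3.69e-06), with 6.07 to 6.57 on the depletion arrays and 5.54 and 5.64 in siNTC. The other let-7f gene, MIRLET7F2, was below background on every array, as were MIRLET7A1, MIRLET7C and MIRLET7E, so no fold is given for them. MIRLET7D (0.23 ± 0.084, adjusted p = 0.0508), MIRLET7G (-0.06 ± 0.11, 0.681) and MIRLET7I (-0.11 ± 0.064, 0.187) were above background and not called. These other let-7 genes are named after their values were seen.

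MIR302B, MIR302A and OTX2, from these lists, are named for their pattern after their values were seen. The MIR302B cluster read 11.22 and 11.32 in siTET1, 10.82 and 10.90 in siTET2, and 10.75 and 10.77 in siTET3, against 11.11 and 10.90 in siNTC. It was lower in siTET2 than in siTET1 by -0.41 ± 0.061 (adjusted p = 0.00288) and lower in siTET3 than in siTET1 by -0.51 ± 0.061 (3.54e-04). Against siNTC it rose in siTET1 (0.27 ± 0.061, 0.00510), fell in siTET3 (-0.24 ± 0.061, 0.00833) and was not called in siTET2 (-0.14, 0.0930). MIR302A was also lower in siTET2 and in siTET3 than in siTET1 (-0.53 ± 0.12, adjusted p = 0.0253, and -0.70 ± 0.12, 0.00320). Both arrays of siTET1 were thus the highest for MIR302B, as for the brighter LIN28A cluster. In the dimmer LIN28A cluster, siTET3 replicate 1 (10.043) lay above siTET1 replicate 2 (10.038). OTX2, a homeodomain factor of the anterior neural plate that pluripotent cells also express, read 11.20 and 11.25 in siTET1, 10.61 and 10.61 in siTET2, and 10.46 and 10.58 in siTET3, against 11.09 and 11.16 in siNTC. It fell in siTET2 (-0.52 ± 0.046, adjusted p = 3.52e-06) and siTET3 (-0.61 ± 0.046, 1.08e-06) and was not called in siTET1 (0.10, adjusted p = 0.116).

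**Figure D3:**
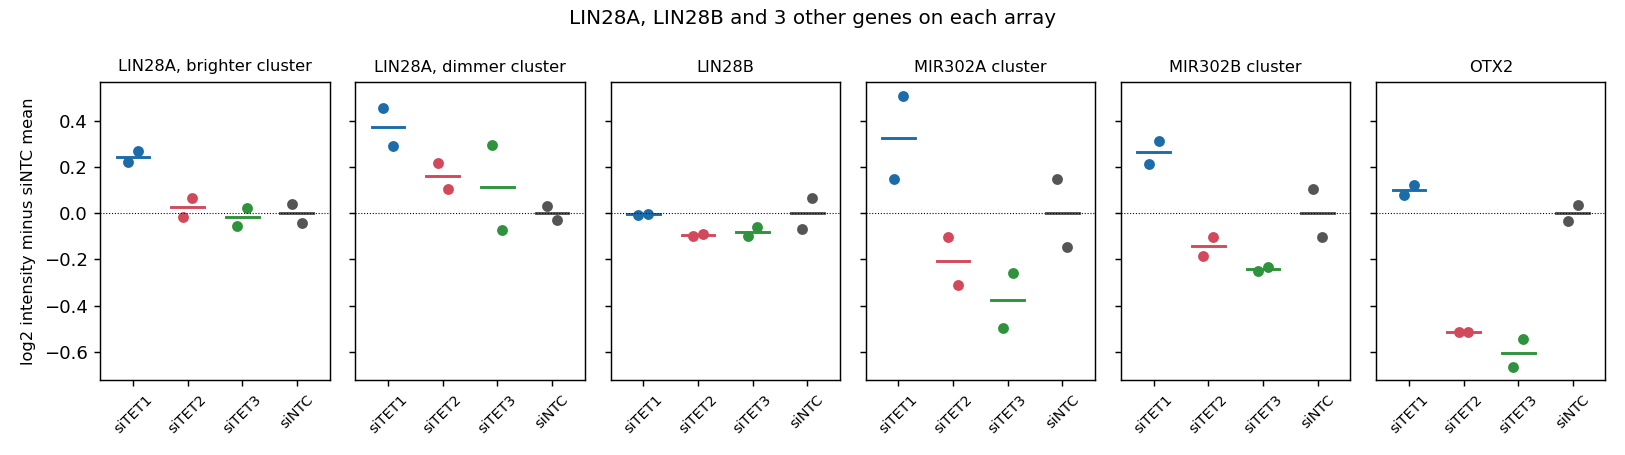
Log2 intensity minus the siNTC mean (vertical axis, shared) of both LIN28A clusters, LIN28B, the MIR302A and MIR302B clusters and OTX2 on each array (points; bars, means of 2 arrays) of siTET1, siTET2, siTET3 and siNTC. LIN28A's brighter cluster is raised by 0.25 in siTET1 alone, and OTX2 lies at -0.52 and -0.61 in siTET2 and siTET3.

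The wider pluripotency network was described by its counts. Of 48 measured factors (50 listed), 9 were called higher and 21 lower in the mean of the depletions, the median being -0.08, beside the 16.6% higher, 23.9% lower and median of -0.02 of all clusters. The counts were 10 and 20 in siTET1, 8 and 17 in siTET2, and 8 and 22 in siTET3. The largest decreases were in SMAD3, a transducer of activin and nodal signals (-0.98 ± 0.049), and TCF7L1, a repressor that restrains the circuit in mouse embryonic stem cells (-0.79 ± 0.037). HESX1, a homeobox repressor (-0.73 ± 0.086), and ZIC2, a zinc finger factor (-0.61 ± 0.061), followed. Each had all depletion arrays below both siNTC arrays, as with SMAD3 at 8.03 to 8.25 on the depletion arrays and 9.10 and 9.21 in siNTC.

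Factors of the naive state, the earlier form of pluripotency seen in the preimplantation epiblast, were called higher more often than lower. Of 22 measured (23 listed), 7 were called higher, 1 was called lower and 14 were not called in the mean of the depletions. The median was 0.14, and 6 were below background on all arrays. Over all clusters 16.6% were called higher and 23.9% lower. The counts were 7 and 1 in siTET1, 7 and 2 in siTET2, and 6 and 1 in siTET3. DPPA3, a maternal factor that protects methylation in the early embryo in mice, rose by 1.63 ± 0.027 (adjusted p = 5.88e-12). It read 12.98 and 12.92 in siTET1, 12.82 and 12.84 in siTET2, and 12.84 and 12.84 in siTET3, against 11.27 and 11.22 in siNTC, and its dimmer cluster rose as well (1.93 ± 0.028). The single decrease was in TFCP2L1 (-0.39 ± 0.074), a transcription factor of the naive circuit in mice. DNMT3L, a cofactor of the de novo DNA methyltransferases (0.64 ± 0.075), IL6ST, the shared receptor of LIF and IL6 signals (0.53 ± 0.040), and NR5A2, a nuclear receptor (0.52 ± 0.032), also rose. The 14 genes not called in the mean of the depletions are all named here. KLF17, ESRRB, DPPA5, ARGFX, NODAL and KHDC3L were the 6 below background on all arrays. KLF2, KLF5, TBX3, TFAP2C, SUSD2, GBX2 and ALPPL2 were above background on every array, and ALPP on some. Whether the cells moved towards the naive state was not tested. DPPA3 has pseudogenes elsewhere in the genome, and probes may not separate them from the gene.

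In earlier results of these data, groups of neighbouring genes differed between the siNTC arrays and all others, so position was set beside these values. The part of such regional differences in the changes of the factors was not tested. Some factors also have pluripotency genes as neighbours. DPPA3 lies 71.8 kb and GDF3, a TGF-beta family ligand, 93.6 kb from NANOG on chromosome 12, and both were picked for this after their values were seen. GDF3 rose in the mean of the depletions (0.26 ± 0.027, adjusted p = 1.06e-05), as DPPA3 did, whereas NANOG fell (-0.13 ± 0.026, adjusted p = 0.00162). DPPA2, the partner of DPPA4 and 9.6 kb from it on chromosome 3, was called higher in siTET3 (0.24 ± 0.077, adjusted p = 0.0293) and not in siTET1 (0.09, 0.441) or siTET2 (0.11, 0.303). Up to 10 measured genes above background on each side gave medians in the mean of the depletions of -0.10 around PODXL, 0.06 around L1TD1, -0.0070 around ZFP42, 0.04 around SALL4 and 0.05 around DPPA4. The medians were -0.07 around POU5F1, -0.06 around NANOG, 0.12 around SOX2, -0.10 around LIN28A and 0.08 around LIN28B. Of 20 neighbours, 12 were called higher and 3 lower around SOX2, 1 and 7 around POU5F1, 5 and 8 around NANOG, 3 and 8 around LIN28A, 7 and 2 around LIN28B, 3 and 6 around DPPA4, 8 and 6 around L1TD1, 4 and 2 around SALL4, and 7 and 7 around PODXL. Around ZFP42 it was 2 and 5 of 14. Over all clusters 16.6% were called higher and 23.9% lower. Those shares include clusters below background, which the neighbours do not, so the neighbour counts and the shares are not matched.

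Relatives of the factors were also counted. Of 25 measured family members and close relatives (29 listed), 1 was called higher and 6 lower in the mean of the depletions, the median being -0.03. The share called lower was near the 23.9% of all clusters, and 16.6% of all clusters were called higher. The one increase was in PODXL2, endoglycan, a relative of podocalyxin (0.34 ± 0.049, adjusted p = 1.33e-04), which read 9.08 and 8.93 in siTET1, 8.79 and 8.75 in siTET2, and 8.595 and 8.586 in siTET3, against 8.47 and 8.43 in siNTC. Its groups ran in the reverse order of those of PODXL, with siTET1 highest and siNTC lowest, and its changes in siTET3 against siNTC (0.14, adjusted p = 0.0925) and against siTET2 (-0.18, 0.0759) were not called. SOX13 (-0.33 ± 0.053) and SOX4 (-0.30 ± 0.053), both of the SOX family, and the cold shock domain protein YBX1 (-0.24 ± 0.029) fell. Among 17 measured partners of podocalyxin and enzymes of mucin-type glycosylation (19 listed), 3 were called higher and 4 lower, with a median of -0.03, both shares near the 16.6% and 23.9% of all clusters. C1GALT1, which extends the first sugar of mucin-type chains (0.42 ± 0.045), and its chaperone C1GALT1C1 (0.52 ± 0.083) rose, while SLC9A3R1 (-0.40 ± 0.051), a scaffold that binds the podocalyxin tail, fell. ST3GAL1, a sialyltransferase, was called higher (0.37 ± 0.12) and was above background on 7 of 8 arrays. GALNT2 (-0.23 ± 0.052) and RDX (-0.16 ± 0.035) were also called lower. WT1, the remaining gene counted as lower, was below background on every array, so no fold is given.

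Direct targets of POU5F1, SOX2 and NANOG and other markers of the stem cell state changed in both directions. Of 36 measured genes (42 listed), 9 were called higher and 15 lower in the mean of the depletions, the median being -0.09, beside 16.6% and 23.9% of all clusters. TRIM22, an interferon-inducible ubiquitin ligase, fell most (-1.64 ± 0.073), with 6.98 to 7.42 on the depletion arrays and 8.95 and 8.77 in siNTC. EPCAM, an epithelial adhesion molecule of the pluripotent cell surface, fell in every depletion (-0.84 ± 0.046 in the mean). FGF2, the growth factor that sustains human pluripotent cells, fell by 0.90 ± 0.051 in siTET1 and by 0.97 ± 0.051 in siTET2 and less in siTET3 (-0.28 ± 0.051), and siTET3 was called higher than siTET2 (0.69 ± 0.051, adjusted p = 1.48e-05). VRTN was called lower too, but it was above background on 1 of 8 arrays only, so no fold is given. These genes are named for the largest changes of the list in either direction. Among the 9 called higher, the largest increases were in PHF17 (0.61 ± 0.034) and SFRP2 (0.42 ± 0.028), named after their values were seen.

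**Figure D4:**
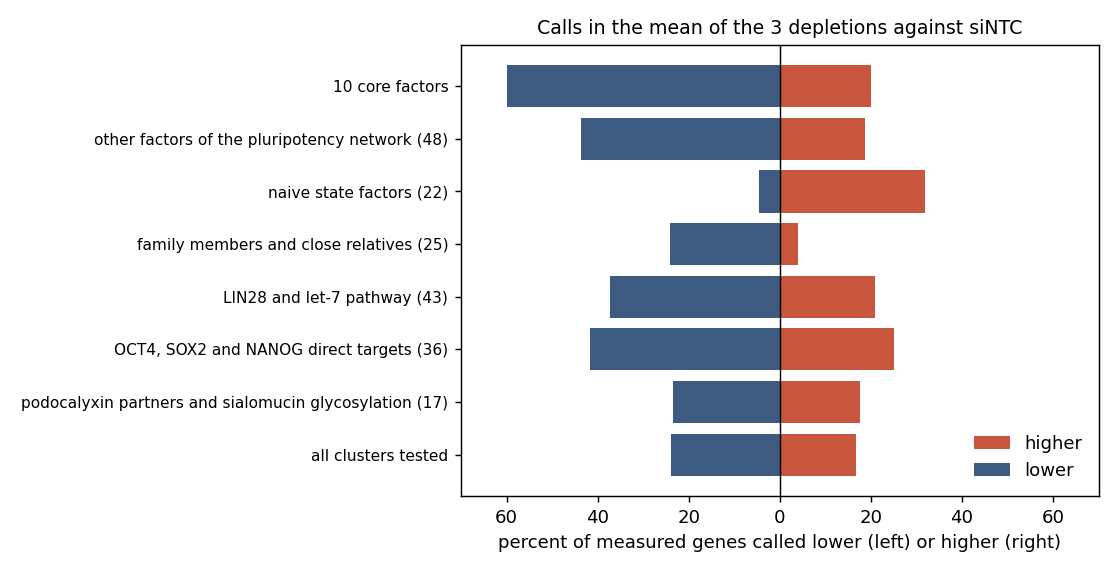
Percent of the measured genes of each list called lower (left) or higher (right) in the mean of the 3 depletions against siNTC, with the number measured in brackets and all 21214 clusters in the bottom row. The 10 core factors (6 lower, 2 higher) and the wider network (21 lower, 9 higher of 48) extend to the left, and naive state factors (7 higher, 1 lower of 22) to the right.

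The labelled cell type was checked against marker genes outside the 10 factors. All 9 measured markers of embryonal carcinoma and other pluripotent cells (11 listed) were above background on every array, with a log2 of their summed intensity of 14.22 to 14.33 on the depletion arrays and 14.14 to 14.18 in siNTC. In the mean of the depletions EPCAM and UTF1 (-0.28 ± 0.077) were called lower and CD24 (0.27 ± 0.034) and GDF3 higher. All 3 measured neuroectoderm markers were below background on every array, and, of these and the 5 mesendoderm markers, 0 passed the limma test in the mean of the depletions, also at an unadjusted p under 0.05. Of 7 endoderm and yolk sac markers, GATA6 was called higher (0.37 ± 0.087), and FOXA2 and AFP were called while below background on every array; of 5 mesenchyme markers LUM was called, also below background. Of 8 trophectoderm markers, KRT7, ELF5 and CGA were below background throughout and 3 were called lower: HAND1 (-0.88 ± 0.079), GATA3 (-0.26 ± 0.086) and TFAP2A (-0.48 ± 0.027). Their summed level was 12.10 to 12.12 in siTET1, 11.89 to 11.93 in siTET2 and 11.79 to 11.83 in siTET3, against 12.39 to 12.42 in siNTC. Of 6 seminoma and primordial germ cell markers, SOX17 and PRDM1 were below background. TFAP2C, KIT and NANOS3 were above background and not called, and PDPN fell (-0.66 ± 0.047). Their summed level was 10.37 to 10.61 on the depletion arrays and 10.84 to 10.89 in siNTC. PDPN was the largest part of that sum and the only marker of the 6 that was called, so the lower sum rests on PDPN. TFAP2A, which made up most of the summed trophectoderm intensity, read 11.66 to 12.02 on the depletion arrays and 12.32 and 12.29 in siNTC. Both sums were lower in every depletion than in siNTC, as were PODXL, ZFP42 and SALL4. Among the depletions the trophectoderm sum was lowest in siTET3, as were SALL4, SOX2 and NANOG. PODXL was lowest in siTET1, and POU5F1 and ZFP42 in siTET2. The part of cells with these markers in those results was not tested.

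For the 3 factors whose group means spanned the widest range, the genes with the most similar profile over the 8 arrays were sought among 13429 clusters above background, as a description. The arrays share the split between siNTC and the depletions, which sets much of any such correlation. PODXL was most like PARP8 (Pearson r = 0.998), ANXA3 (0.997) and LHFPL6 (0.997). ANXA3, an annexin, averaged 5.401, 5.499 and 5.694 in siTET1, siTET2 and siTET3, against 7.196 in siNTC, the same order as PODXL. L1TD1 was most like SREK1 (0.995), SRP68 (0.990) and XRCC2 (0.990), and ZFP42 was most like FBXO27 (0.998), TOX4 (0.991) and EEF1A1 (0.989).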

How the data were processed

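RNA of NCCIT cells (siTET1, siTET2, siTET3 and siNTC, 2 arrays each) was profiled on Affymetrix Human Gene 1.0 ST arrays. The authors deposited log2 intensities of 33297 transcript clusters. The submitters' processing notes name Partek. For its version, for background correction and for summarization the entry is "not given in the sources used here". Arrays had medians of 6.22 to 6.27, and their number limits the precision. Nothing in the labels says that replicates were separate cultures, so the tests measure the spread between these arrays only, which may be technical.

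The platform annotation gave symbols to 21214 clusters, and all were tested. The 4 groups entered a single limma model (version 3.58.1, R 4.3.3; lmFit and eBayes with trend = TRUE, two-sided), and p was adjusted by Benjamini-Hochberg over the 21214 clusters. A factor with several clusters was represented by the brightest. The fit was tested on simulated data. The 10 factors and the gene lists were chosen with earlier results of these data known. Every factor is named. From each list at most 4 called genes, those with the largest change in the mean of the depletions, and those counted in groups of 5 or fewer are named, unless stated. The alternatives were quantile normalization, all clusters, clusters above background, no intensity trend, the 4 arrays of a comparison alone, a replicate block, a 1.5-fold threshold, other clusters of a factor, single-symbol genes only and each array left out in turn. Deviations of same-numbered replicates correlated at r = 0.24 between siTET1 and siTET3 and at -0.04 to 0.02 in the other pairs of groups, so the numbers were not taken to pair the arrays. Figures were drawn with matplotlib 3.10.9.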

Additional observations from a re-analysis of the deposited data

Results flagged for a closer look

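Changes of 4 factors differed between depletions by a test of the difference itself (limma, adjusted over all clusters). The brighter LIN28A cluster was lower in siTET2 than in siTET1 (-0.2206, adjusted p = 0.0115). It was also lower in siTET3 than in siTET1 (-0.2615, adjusted p = 0.00224). The dimmer LIN28A cluster was not called in these comparisons (adjusted p = 0.261 and 0.104). SOX2 was lower in siTET3 than in siTET1 (-0.1157, adjusted p = 0.0225). PODXL was higher in siTET3 than in siTET1 (0.1506, adjusted p = 0.0177), its decrease against siNTC being smaller in siTET3. L1TD1 was higher in siTET3 than in siTET2 (0.1811, adjusted p = 0.00601). In each of these called differences, both arrays of one depletion lay on one side of both arrays of the other. Apart from LIN28A in siTET3 against siTET1, each lost its call when one of several arrays was left out.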

How the results depend on the processing

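PODXL, L1TD1, SALL4 and ZFP42 kept their direction and their call against siNTC under all 59 alternative values of each, which do not include the fold threshold. POU5F1 and DPPA4 kept their direction and lost the call in 13 of 63 and 13 of 59. The 63 values of POU5F1 include both of its clusters with identical values, which repeat the same measurement. With no intensity trend 4 factors were called in siTET2 against siNTC, 0 in siTET2 against siTET1, 1 in siTET3 against siTET1 and 0 in siTET3 against siTET2. Over all clusters of the array 0 were called in siTET2 against siTET1 and 1 in siTET3 against siTET1. With at least a 1.5-fold change 1 was called in siTET1, 1 in siTET2, 0 in siTET3 and 1 in the mean of the depletions against siNTC, 0 in each comparison between depletions, and 0 in all 3 depletions the same way. Leaving out each array in turn gave 0 to 1 calls in siTET2 against siTET1, 1 to 3 in siTET3 against siTET1 and 0 to 1 in siTET3 against siTET2. Against siNTC it gave 5 to 7 calls in siTET1, 6 to 8 in siTET2, 7 to 9 in siTET3, 8 to 10 in the mean and 4 to 6 in all 3 depletions the same way. Apart from the replicate block, the number of all clusters called under these settings was not counted. The counts of called factors therefore have no share of all clusters beside them. No value whose sign turned was called. With quantile normalization LIN28B was 0.0258 in siTET1 and DPPA4 0.0084 in siTET2 against siTET1. The dimmer LIN28A cluster, without that normalization, was 0.1115 in siTET3. Leaving out single arrays, LIN28B ranged over -0.0714 to 0.0636 in siTET1 and -0.127 to 0.0080 in the mean, and LIN28A over -0.0183 to 0.0677 in siTET2 and -0.057 to 0.0246 in siTET3. Between depletions SALL4 ranged over -0.0835 to 0.0127 in siTET2 against siTET1, and POU5F1 over -0.0599 to 0.0008 in siTET3 against siTET1. In siTET3 against siTET2 the ranges were -0.0237 to 0.037 for POU5F1, -0.0839 to 0.0021 for LIN28A, -0.0063 to 0.033 for LIN28B, -0.0814 to 0.0148 for SALL4 and -0.0180 to 0.054 for ZFP42. The cause of these changes was not tested. With replicate number as a replicate block the counts of called factors were 7, 8, 8 and 8 against siNTC and 1, 3 and 1 between depletions, as without it, and 7343 of all clusters were called in siTET1 instead of 7288.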
